A study of Homo sapiens with 6 samples.

Results

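The cardiac myosin genes described here are 9 of the 35793 genes in the deposited table, chosen by symbol for their known place in the motor of heart muscle. They are the heavy chains MYH6, MYH7 and MYH7B, the regulatory light chains MYL2 and MYL7, the essential light chains MYL3, MYL4 and MYL6, and the light chain kinase MYLK3. RNA was sequenced from cardiomyocytes grown out of WTC11, an established human induced pluripotent stem cell line. The wild-type group was unedited WTC11, and the STK25KO group came from an isogenic derivative in which CRISPR/Cas9 had disrupted both copies of STK25, a serine/threonine kinase gene. Each genotype gave 3 biological replicates collected at day 15 of differentiation, no other treatment was given, and the comparison asks how losing STK25 changes the RNA of these cells. The labels name 1 knockout line, so the edit and any other difference between the lines cannot be told apart. They do not say whether the replicates were separate differentiations, so the p-values measure the spread between these samples only.

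Myosin, the motor of the thick filament, is a hexamer of a pair of heavy chains, each carrying an essential and a regulatory light chain on its neck. Human hearts use a fast alpha heavy chain, encoded by MYH6 and prominent in atria, and a slower beta heavy chain, encoded by MYH7 and prominent in ventricles. The light chains also differ by chamber: MYL2 and MYL3 are the ventricular regulatory and essential chains, and MYL7 and MYL4 their atrial counterparts, both of which are also made in the embryonic ventricle. MYL6 is an essential light chain of smooth muscle and nonmuscle cells, MYH7B is a slow-type heavy chain gene, and MYLK3 is the cardiac kinase that phosphorylates MYL2. MYL7 and MYH6 are commonly high in young stem cell-derived cardiomyocytes, and MYL2 is used as a marker of ventricular ones.

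All 3 heavy chain genes host a microRNA within an intron, together known as myomiRs, and the sequences are shown because their hosts are described next. They come from RefSeq on GRCh38.p14, with the seed (bases 2 to 8) in capitals. MicroRNAs were not measured in these libraries.
hsa-miR-208a-3p, chr14:23388602-23388623 (minus strand), in MYH6: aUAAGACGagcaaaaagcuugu
hsa-miR-208b-3p, chr14:23417997-23418018 (minus strand), in MYH7: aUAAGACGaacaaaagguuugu
hsa-miR-499a-5p, chr20:34990408-34990428 (plus strand), in MYH7B: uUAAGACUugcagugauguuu
The microRNAs of MYH6 and MYH7 share their seed and differ at 3 of 22 bases. The seed of the MYH7B microRNA differs from theirs only at base 8, with U in place of G.

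MYH6 (chromosome 14, 23381990 to 23408277) and MYH7 (chromosome 14, 23412738 to 23435718) lie in tandem on the minus strand with 4460 bases between them, in GENCODE 29 on GRCh38. MYH7B lies on chromosome 20 (34975403 to 35002437), MYL2 on 12 (110910819 to 110920722), MYL7 on 7 (44138864 to 44141332), MYL3 on 3 (46857872 to 46882169), MYL4 on 17 (47200446 to 47223679), MYL6 on 12 (56158161 to 56163496) and MYLK3 on 16 (46703369 to 46790407). All 9 are protein-coding. RefSeq promoters were matched for 5 of the 9 members. The 250 bases before the start sites of the atrial-type genes MYL7 and MYH6 are printed because these genes had fold changes of opposite sign. Capitals mark motif matches.
MYL7, chr7:44141333-44141582 (minus strand): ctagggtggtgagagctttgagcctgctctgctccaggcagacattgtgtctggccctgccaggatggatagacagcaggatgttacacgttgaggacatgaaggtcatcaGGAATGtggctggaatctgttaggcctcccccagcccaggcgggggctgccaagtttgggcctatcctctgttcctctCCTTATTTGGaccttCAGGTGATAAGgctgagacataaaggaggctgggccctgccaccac
MYH6, chr14:23408274-23408523 (minus strand): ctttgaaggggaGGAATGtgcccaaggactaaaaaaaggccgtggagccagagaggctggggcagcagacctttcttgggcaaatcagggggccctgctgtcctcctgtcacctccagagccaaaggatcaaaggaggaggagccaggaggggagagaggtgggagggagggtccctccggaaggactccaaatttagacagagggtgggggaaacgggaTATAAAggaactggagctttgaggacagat
The letters GGAATG (a TEAD core), GATAAG (of GATA factors), CAGGTG (an E box), GGTGTG (a T-box core), AAGTG (an NKX core) and TATAAA (the core promoter box), and the motifs named MEF2 and CArG, were searched on both strands. The MYL7 window held GGAATG from -139 to -134, a CArG match from -61 to -52, and CAGGTG from -46 to -41, whose last base is the first of GATAAG (-41 to -36). The MYH6 window held GGAATG from -238 to -233 and TATAAA from -30 to -25. Of 34941 RefSeq promoter windows of the same length, 11.9% held GGAATG, 17.5% CAGGTG, 5.66% GATAAG, 10.8% TATAAA and 1.17% a CArG match. GGTGTG (14.2% of windows), AAGTG (37.6%) and MEF2 (1.76%) were not found in either window. The matches describe letters only.

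Values are the authors' normalized counts, from which whole reads could be recovered. The libraries held 22443904 to 53224112 reads. The 9 myosin genes took 3.11, 3.60 and 3.30% of the reads in wild-type replicates 1, 2 and 3 and 7.16, 4.36 and 5.16% in the knockout. STK25 itself had 8874, 6774 and 8710 normalized counts in the wild type and 3906, 3434 and 3820 in the knockout (log2 fold change -1.12, SE 0.19, limma adjusted p = 0.00903), so that transcripts of the gene were lower but still present. Without wild-type replicate 1 its adjusted p was 0.0609. Wild-type replicate 2 and knockout replicate 1 stood apart: genes with transcripts under 1000 bases had a median log2 deviation from their own means of 0.48 and 0.74 there, against -0.37 to -0.04 in the other libraries. Defining cardiomyocyte markers were high in every library, TNNT2 spanning 206999 to 270043 in wild-type and 226420 to 359162 in knockout libraries, and of the skeletal muscle regulators MYOD1, MYF5 and PAX7 were at 0 in all 6, while MYOG had 20 reads in wild-type replicate 2, none in the other wild-type libraries and 2, 3 and 5 in the knockout.

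The ventricular regulatory light chain MYL2 was nearly lost in the knockout and the heavy chain gene MYH7B rose, while the other 7 genes did not pass the test over all genes. With limma on log2(value + 1) and Benjamini-Hochberg adjustment over 15536 genes, 2 of the 9 had an adjusted p under 0.05, beside 12.8% of all genes tested. These were 1 higher gene, MYH7B, against 5.97% of all genes called higher, and 1 lower gene, MYL2, against 6.79% called lower. Scaling to equal totals, to equal upper quartiles or to 12 other cardiomyocyte genes gave 0 higher and 2 lower in each case, MYH7B no longer passing and MYH6 passing as lower. The genotypes did not overlap in 6 of the 9, namely MYH6, MYH7, MYH7B, MYL2, MYL7 and MYLK3, against 33.4% of all genes. Of the 9 log2 fold changes 7 were positive and 2 negative, with a median of 0.80 beside 0.0052 over all genes tested. All 9 passed the filter of a mean of at least 10 normalized counts. In bulk RNA, fewer cells of a type and less RNA per cell cannot be told apart.

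**Figure D1:**
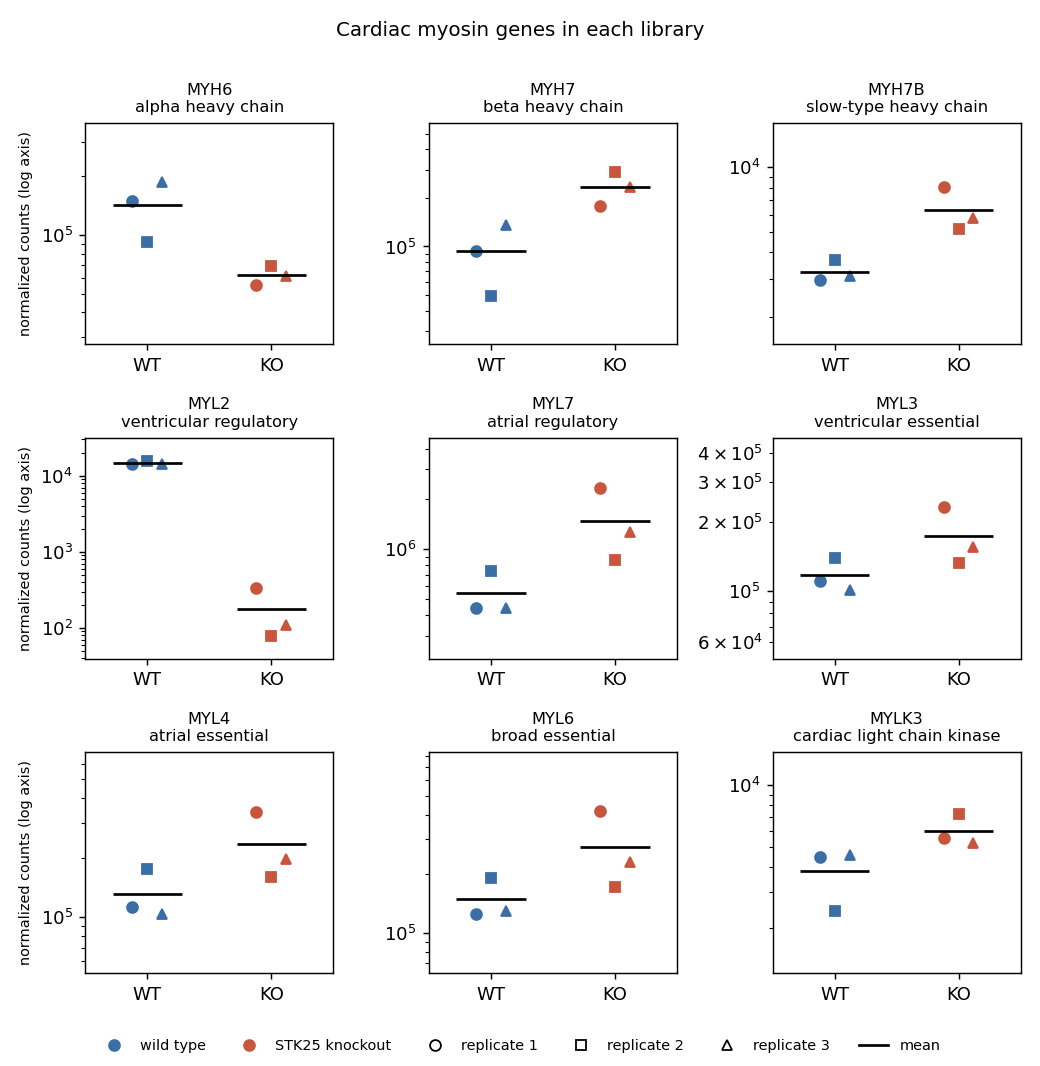
Normalized counts (log axis) of the 9 myosin genes in wild-type (WT) and knockout (KO) libraries, with marker shapes for the replicates and a bar at each mean. MYL2 drops from a mean of 14793 to 176, MYH6 and MYH7 move apart, and the light chains MYL3, MYL4 and MYL6 overlap between genotypes.

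The alpha heavy chain gene MYH6 had 149017, 91792 and 186498 normalized counts in wild-type replicates 1, 2 and 3, and 55128, 69496 and 61767 in knockout replicates 1, 2 and 3. Every knockout value was below every wild-type value, and the wild-type libraries spread 2.03-fold where the knockout libraries spread 1.26-fold. The means were 142436 ± 47695 and 62131 ± 7191 (SD, n = 3 each), so the knockout mean was 43.6% of the wild type. The log2 fold change was -1.14 (SE 0.31, 95% interval -1.87 to -0.41), which missed the threshold with a limma adjusted p of 0.0531. It was past it in 7 of 19 alternatives, among them edgeR on the recovered reads (adjusted p = 0.0366), with adjusted p-values from 0.000986 to 0.204 over the 19.

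The beta heavy chain gene MYH7, its neighbour, had the opposite sign. Its values were 94111, 49595 and 136875 in the wild type and 177105, 291460 and 235317 in the knockout. The lowest knockout library, replicate 1, lay above the highest wild-type library, replicate 3. The means were 93527 ± 43643 and 234627 ± 57181 (SD, n = 3 each), a 2.51-fold difference. The log2 fold change of 1.42 (SE 0.41, 95% interval 0.46 to 2.38) had a limma adjusted p of 0.0639 and passed the threshold in 2 of 19 alternatives, with adjusted p-values from 0.00598 to 0.289. Reads common to these near-identical paralogs may be split between them in gene totals, and the rule by which that was done is not given in the sources used here.

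Put on a per-length scale, the 2 heavy chains changed order. MYH6 made up 61.9, 65.5 and 58.3% of MYH6 plus MYH7 in the wild type and 24.2, 19.6 and 21.2% in the knockout, each value being divided by the length of the gene's principal transcript (5941 bases for MYH6, 6087 for MYH7). The alpha chain was thus the larger in all 3 wild-type libraries and the smaller in all 3 knockout libraries. The mean share went from 61.9 ± 3.60% to 21.7 ± 2.31% (SD, n = 3 each), or by -40.2 percentage points. The log2 odds differed by -2.56 (SE 0.17), and the exact two-sided permutation test gave p = 0.1, the smallest that 3 against 3 allows (adjusted p = 0.25 over the 5 shares computed). A factor per library cancels in this share, and leaving out any single library kept the difference between -42.0 and -38.4 points. Exact binomial 95% intervals, which cover counting error only, were computed for shares of reads not divided by length. They were narrow beside the gaps between genotypes. For example, the interval was 61.1 to 61.5% around 61.3% in wild-type replicate 1. In knockout replicate 1 it was 23.5 to 23.9% around 23.7%.

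The summed heavy chain RNA overlapped between the genotypes. MYH6 plus MYH7 came to 40544, 23598 and 53878 normalized counts per kilobase in the wild type and 38375, 59580 and 49056 in the knockout. The log2 difference was 0.37 (SE 0.39, exact two-sided permutation p = 0.5), and it was -0.03 when libraries were scaled to 12 other cardiomyocyte genes.

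**Figure D2:**
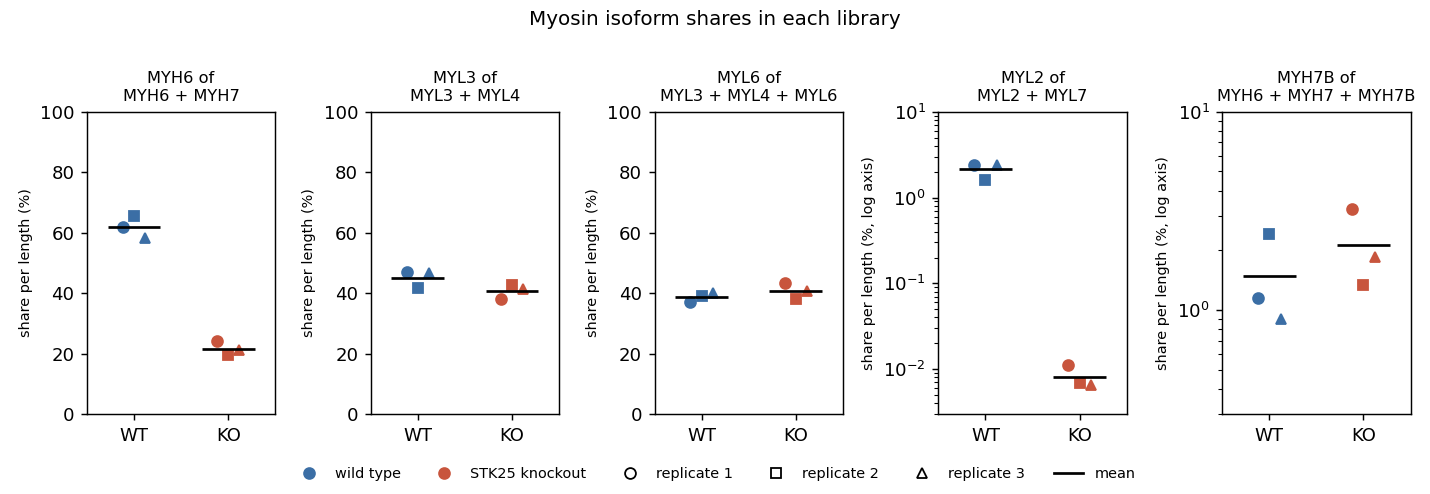
Isoform shares per transcript length in each library, in percent (the MYL2 and MYH7B panels have log axes), with a bar at each mean. The MYH6 share lies at 58.3 to 65.5% in the wild type and 19.6 to 24.2% in the knockout, the MYL2 share is at most 0.0110% in the knockout, and the other 3 shares overlap.

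MYH7B, the host of the third microRNA, rose at a low level. It had 2977, 3663 and 3085 normalized counts in the wild type and 8046, 5116 and 5807 in the knockout. All knockout libraries were above all wild-type libraries, with replicate 1 the highest. The means were 3242 ± 369 and 6323 ± 1532 (SD, n = 3 each), a 1.95-fold rise with a log2 fold change of 0.94 (SE 0.22, 95% interval 0.43 to 1.46, limma adjusted p = 0.0312). The call held in 11 of 19 alternatives and was lost in 8, with adjusted p-values up to 0.141. Among the 8 were the fits without wild-type replicate 1 (limma adjusted p = 0.139), wild-type replicate 3 (0.114) or knockout replicate 3 (0.0940), and scaling to equal totals (0.0508), equal upper quartiles (0.0523) or 12 cardiomyocyte genes (0.0864). TRPC4AP overlaps the gene on the other strand, and the labels do not state that strand was used in counting. As a share of the 3 heavy chains per length, MYH7B was 1.15, 2.41 and 0.902% in the wild type and 3.22, 1.35 and 1.85% in the knockout, with overlapping groups (exact permutation p = 0.4).

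Among the regulatory light chains, MYL2 fell furthest of the 9 genes. Its values were 14296, 15833 and 14249 in the wild type, the tightest group of any member (1.11-fold from lowest to highest). In the knockout they were 338, 79.1 and 109, the widest group (4.27-fold), with replicate 1 above the other libraries. These values rest on 9465, 20787 and 22337 reads in the wild type and 266, 71 and 123 in the knockout, so MYL2 remained detectable in every knockout library. The means were 14793 ± 901 and 176 ± 142 (SD, n = 3 each), an 84.3-fold fall. The log2 fold change was -6.68 (SE 0.49, 95% interval -7.80 to -5.56, limma adjusted p = 0.000281), and it was past the threshold in all 19 alternatives, from -7.30 to -6.26 on the log2 scale.

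Its atrial counterpart MYL7 was the most abundant member and ranked first or second among all genes in every library. The values were 442989, 739950 and 441630 in the wild type and 2324410, 860614 and 1258030 in the knockout. Knockout replicate 1 and wild-type replicate 2 were the highest of their groups, and the lowest knockout library was above the highest wild-type library. MYL7 alone took 1.31, 1.89 and 1.30% of reads in the wild type and 4.67, 2.21 and 3.02% in the knockout. The means, 541523 ± 171844 and 1481018 ± 756946 (SD, n = 3 each), differed 2.73-fold. The log2 fold change of 1.37 (SE 0.49, 95% interval 0.24 to 2.51) had a limma adjusted p of 0.114 and passed the threshold in 1 of 19 alternatives, DESeq2 (0.00443). Quantile normalization gave 0 for it, since that step keeps ranks only and each genotype had MYL7 first in 1 library and second in the other 2.

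MYL2 was a minor share of the regulatory light chains in both genotypes and almost none of them in the knockout. Per length it was 2.39, 1.60 and 2.39% of MYL2 plus MYL7 in the wild type and 0.0110, 0.00697 and 0.00659% in the knockout. The groups did not overlap, and the lowest wild-type share came from replicate 2. The log2 odds differed by -8.06 (SE 0.31, exact two-sided permutation p = 0.1, the smallest possible, adjusted p = 0.25), a 268-fold difference in odds. Shares of reads, not divided by length, were 0.0145, 0.0092 and 0.0087% in knockout replicates 1, 2 and 3. Their exact 95% intervals were 0.0128 to 0.0164%, 0.0072 to 0.0116% and 0.0072 to 0.0104%. The sum of both genes per kilobase, nearly all of it MYL7, was 2.68-fold higher in the knockout and did not overlap (log2 difference 1.34, SE 0.48, exact permutation p = 0.1).

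The essential light chains overlapped between the genotypes. MYL3, the ventricular form, had 110472, 139518 and 101682 normalized counts in the wild type and 234041, 133175 and 155930 in the knockout. Knockout replicate 1 was far above the rest, and replicate 2 fell below wild-type replicate 2. The log2 fold change was 0.54 (SE 0.31, 95% interval -0.17 to 1.26, limma adjusted p = 0.306).

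MYL4, the atrial form, had 112126, 175122 and 104062 in the wild type and 342377, 160015 and 197246 in the knockout. MYL6, the broadly expressed form, had 124245, 191011 and 128804 and then 418037, 171578 and 229626. In both genes wild-type replicate 2 exceeded knockout replicate 2, and knockout replicate 1 was the highest library of all. The log2 fold changes were 0.80 (SE 0.38, 95% interval -0.07 to 1.68) for MYL4 and 0.81 (SE 0.40, 95% interval -0.11 to 1.73) for MYL6. Their limma adjusted p-values were 0.220 and 0.235, and none of the 3 essential light chains passed the threshold in any of the 19 alternatives. MYL6 overlaps MYL6B and other genes, so reads of these may be mixed with its own.

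The atrial to ventricular balance and the muscle to nonmuscle balance of the essential light chains overlapped as well. MYL3 per length was 46.9, 41.7 and 46.7% of MYL3 plus MYL4 in the wild type and 38.0, 42.7 and 41.5% in the knockout, overlapping ranges with a log2 odds difference of -0.26 (SE 0.13, exact permutation p = 0.2). MYL6 was 37.2, 39.0 and 39.9% of the 3 essential chains in the wild type and 43.3, 38.2 and 40.7% in the knockout (log2 odds difference 0.12, SE 0.10, exact permutation p = 0.4). The summed MYL3 and MYL4 per kilobase had a log2 difference of 0.69 (SE 0.35, exact permutation p = 0.2). The ventricular share thus had a lower mean in the knockout for both the regulatory chain (MYL2) and the essential chain (MYL3). The genotypes did not overlap in the MYL2 share and overlapped in the MYL3 share. The difference between these shares was not tested.

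MYLK3, whose kinase acts on the regulatory light chain, had 4444, 2423 and 4554 normalized counts in the wild type and 5523, 7245 and 5223 in the knockout. The groups did not overlap, wild-type replicate 2 being the lowest and knockout replicate 2 the highest. The 1.58-fold higher mean corresponded to a log2 fold change of 0.70 (SE 0.29, 95% interval 0.03 to 1.36, limma adjusted p = 0.162), which passed in none of the 19 alternatives.

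Levels per kilobase of transcript put the light chains MYL7, MYL6, MYL4 and MYL3 above the heavy chains in every library, while MYL2 lay among the heavy chains in the wild type and below them in the knockout. In the wild type the order was MYL7 (884841 ± 280791, SD, n = 3), MYL6 (164284 ± 41400), MYL4 (143811 ± 42898), MYL3 (115834 ± 19567), MYH6 (23975 ± 8028), MYL2 (18330 ± 1117), MYH7 (15365 ± 7170), MYLK3 (551 ± 174) and MYH7B (515 ± 58.6). The neighbours from MYL6 to MYL3, from MYH6 to MYH7, and MYLK3 with MYH7B overlapped in range. In the knockout MYH7 (38546 ± 9394) stood above MYH6 (10458 ± 1210) without overlap, and MYL2 (217 ± 175) went from the sixth place to the last, below MYLK3 (868 ± 158) in all 3 libraries. MYH7B (1005 ± 243) and MYLK3 still overlapped there. The first 4 places, MYL7, MYL6, MYL4 and MYL3, were in the same order in both genotypes with these principal transcript lengths. The place of MYL6 rests on a length of 901 bases, while its longest coding transcript has 1438. With the longest transcripts its mean share of the 3 essential chains was 28.4% in the wild type and 30.1% in the knockout. With the principal ones it was 38.7 and 40.7%. MYL6 thus does not keep second place with the longest transcripts.

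The light chain transcripts are short (612 bases for MYL7 to 1012 for MYL3) and those of the heavy chains and MYLK3 long (5941 to 6911), so the values are given beside the libraries' trend over transcript length. That trend, the median log2 deviation of genes under 1000 bases minus that of genes from 5500 to 7000 bases, was -0.43, 0.65 and -0.50 in the wild type and 0.84, -0.51 and -0.05 in the knockout. The ratio of regulatory light chain to heavy chain per length was 18.3, 52.1 and 13.7 in the wild type and 99.0, 23.6 and 41.9 in the knockout. The ratio of essential light chain to heavy chain was 5.74, 14.0 and 3.99 and then 15.9, 5.17 and 7.57. In each genotype the highest ratio of both kinds came from the library with the highest trend, and the ranges overlapped between genotypes. The ratio between 2 short classes, regulatory to essential, was 3.19, 3.71 and 3.44 in the wild type. In the knockout it was 6.24, 4.57 and 5.53, without overlap between the genotypes. Within each genotype this ratio, too, was highest in the library with the highest trend. The 2 classes also differ in length, with 612 bases for MYL7 against 907 for MYL4 and 1012 for MYL3. These ratios were chosen after the values were seen and carry no test.

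**Figure D3:**
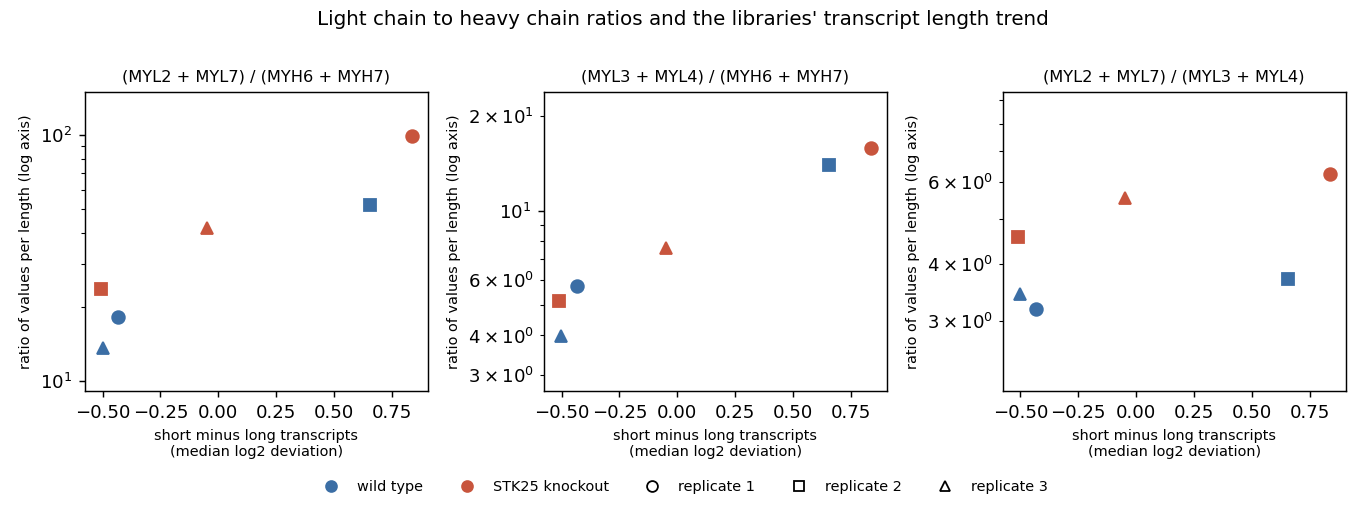
Ratios of light to heavy chains and of regulatory to essential light chains per transcript length (log axes) against each library's short minus long transcript trend (median log2 deviation), coloured by genotype. Within each genotype every ratio is highest in the library with the highest trend, wild-type replicate 2 (0.65) and knockout replicate 1 (0.84). The regulatory to essential ratio also separates the genotypes.

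Most members that missed the threshold with all libraries passed it in 2 further fits, both chosen after the data were seen. With the dependence on transcript length and GC content removed from each library, all 9 were called by limma, against 20.0% of all genes, and each kept its direction. The log2 fold changes were then -1.02 for MYH6 (limma adjusted p = 0.00900), 1.54 for MYH7 (0.00909), 1.36 for MYL7 (0.00272), 0.83 for MYL4 (0.00829) and 0.59 for MYL3 (0.0263). Those of MYH7B, MYL6 and MYLK3 were 1.09, 0.83 and 0.74, and that of MYL2 was -6.68. Without wild-type replicate 2 and knockout replicate 1, 8 of 9 were called, against 28.9% of all genes, MYLK3 being the exception (0.45, limma adjusted p = 0.0716). The sizes there were -1.35 for MYH6, 1.21 for MYH7, 1.23 for MYL7, 0.72 for MYL4 and 0.65 for MYL6. What part the length trend had in the calls with all libraries was not tested.

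**Figure D4:**
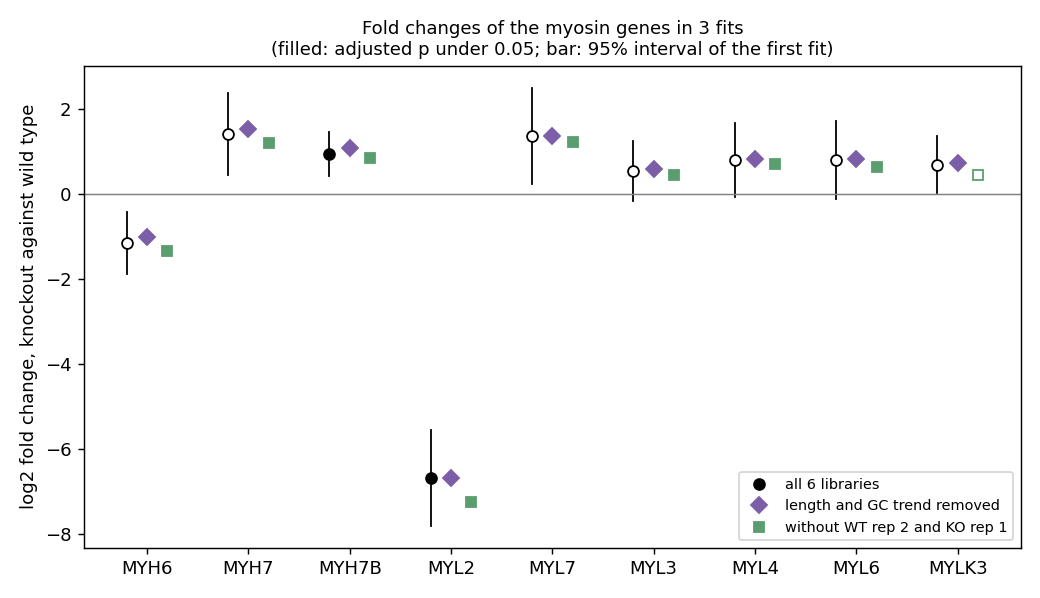
Log2 fold changes of the 9 genes in limma fits with all libraries (with 95% intervals), with the length and GC trend removed, and without the 2 libraries that stood apart; filled symbols have an adjusted p under 0.05. Directions are the same in the 3 fits, and 2, 9 and 8 of the genes are filled.

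Genes that work with myosin were read from lists chosen by function. The counts of these and the later lists stand beside 5.97% of all genes called higher and 6.79% called lower. No list was tested as a set, and a count near those shares says nothing particular about its list. Of the thick filament partners, 7 of 10 were tested and 1 rose: MYBPHL, a myosin-binding protein related to MYBPC3 and expressed in atria, went from 120 to 480 (log2 fold change 2.00, SE 0.32, limma adjusted p = 0.00742). MYBPC3 and the giant scaffold TTN had values of 0.63 and 0.66 and did not pass (0.205 and 0.124), and the list's median was 0.66. None of the 8 myosin folding and turnover genes passed, among them the myosin chaperone UNC45B (0.86, limma adjusted p = 0.142) and the methyltransferase SMYD1 (-0.12, 0.863), with a median of 0.42. Of the light chain phosphorylation genes, 1 of 12 tested passed, MYLK, the kinase of smooth muscle and nonmuscle light chains. It rose 14.2-fold, from 284 to 4039 (log2 fold change 3.81, SE 0.22, limma adjusted p = 0.000144), while MYLK3 did not pass.

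Myosin chains of other muscle and cell types moved as well. Of 7 tested sarcomeric chains outside the 9, 2 rose and 2 fell, the latter being MYH2 and MYH4, which were named after their values were seen. MYH3, the embryonic skeletal heavy chain, rose 34.0-fold from 40.4 to 1375, or by 5.09 on the log2 scale (SE 0.42, limma adjusted p = 0.000449). MYL1, a fast skeletal essential light chain also made in embryonic heart, had at most 3 reads in each wild-type library and 102 ± 40.5 (SD, n = 3) in the knockout, at least 35.2-fold higher. Among 7 smooth muscle and nonmuscle chains 3 rose and none fell, with a median of 0.89. These were the smooth muscle heavy chain MYH11 (254 to 8493, log2 fold change 5.12, limma adjusted p = 0.000175) and the nonmuscle regulatory light chains MYL12A (1.46, 0.00967) and MYL12B (0.89, 0.0439). MYL12A was lost without wild-type replicate 1 or 3 (limma adjusted p up to 0.0644), and MYL12B in 5 of 6 such fits.

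Of the regulators of chamber identity and myosin genes, 22 of 23 were tested, and the median of 0.04 changed sign with the scaling. Among those tested 3 rose and 3 fell, beside 5.97% of all genes called higher and 6.79% called lower. HEY2 and IRX4, ventricular transcription factors, fell 23.1-fold (3227 to 140, limma log2 fold change -4.57, SE 0.28, adjusted p = 0.000177) and 8.49-fold (8050 to 949, -3.09, SE 0.22, 0.000280). NKX2-5, a core cardiac factor, fell from 21091 to 6444 (-1.71, SE 0.18, limma adjusted p = 0.00135). NR2F2, which marks atrial identity, rose from 36.2 to 407 (3.59, SE 0.59, limma adjusted p = 0.00818), and the muscle factor MEF2C from 3299 to 7239 (1.14, SE 0.22, 0.0138). THRB, a thyroid hormone receptor, had 4.16 and 127 (5.06, limma adjusted p = 0.00907, 0.0502 without knockout replicate 3). MEF2C was lost without wild-type replicate 3 or knockout replicate 3 (limma adjusted p up to 0.0600). TBX5, GATA4, THRA and TEAD1 had -0.76, 0.19, -0.72 and 0.85 and did not pass.

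Markers of other cell types moved beside the myosin genes. All 5 smooth muscle markers rose, with a median of 2.21 and a summed level of 79383 to 89832 in the wild type and 491950 to 539640 in the knockout, led by MYH11, ACTA2 (49466 to 389103) and TAGLN (15843 to 74995). Of 6 fibroblast markers 2 were called higher (COL3A1, 2.61, and DCN, 2.82) and none lower, and the summed level overlapped (8656 to 17291 and 7530 to 15832). The log2 fold changes of this list were positive in 4 and negative in 2. COL1A1, the most abundant, went from 10227 to 4792 without overlap (-1.10, limma adjusted p = 0.0789). POSTN had -2.38 (limma adjusted p = 0.134), and neither passed. Of 5 epicardial markers 2 rose, TCF21 (22.2 to 467) and ALDH1A2 (6.37 to 189, limma adjusted p = 0.0660 without knockout replicate 3). The log2 fold changes of this list were positive in 4 and negative in 1, with a median of 2.74. Its summed level was low, at 174 to 187 in the wild type and 844 to 1019 in the knockout. Of 3 tested endothelial markers none passed. Of 4 tested endoderm markers APOB rose (at most 3 reads in each wild-type library, 366 in the knockout, at least 126-fold higher) and AFP fell (104 to 2.03), with summed levels of 1652 to 3003 in the wild type and 1480 to 1625 in the knockout. Of 4 tested pluripotency markers SOX2 rose (1.91 to 138, limma log2 fold change 5.81), with sums of 329 to 422 and 595 to 652. Of 12 other cardiomyocyte genes 1 rose (CASQ2) and 2 fell (CSRP3 and PLN), with a median of 0.53 (-0.05 with quantile normalization). Log2 fold changes were positive in 8 and negative in 4. Their sum was 1126200 to 1232400 in the wild type and 1861300 to 2280900 in the knockout. The largest part of it was ACTC1, which went from 647518 to 1354019 and did not pass (limma adjusted p = 0.0958). The skeletal markers CKM (25506 to 108307) and ACTA1 (13176 to 6952) moved in opposite directions. CASQ2, CSRP3, PLN, COL3A1, DCN, SMTN, CNN1 and ACTA1 lost the call in 3 to 5 of the 6 fits that left out 1 library. Several of these genes are also made in immature cardiomyocytes, and what part other cells had in the values of MYL2, MYL6, MYLK or the nonmuscle chains was not tested.

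**Figure D5:**
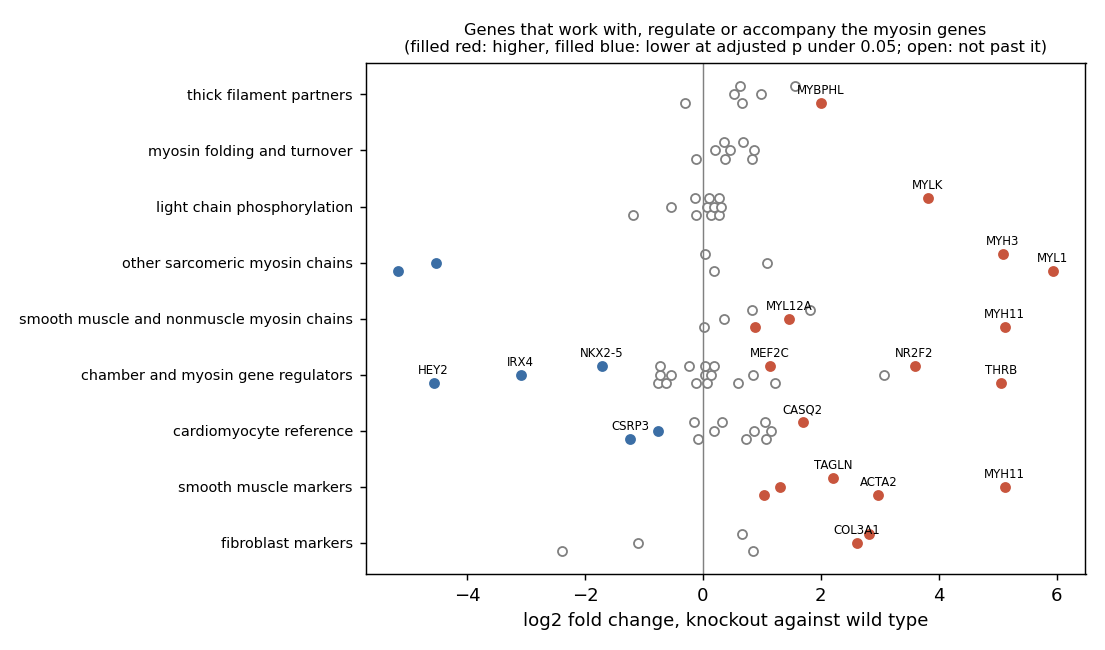
Log2 fold changes, knockout against wild type, of the tested genes in 9 functional lists, each point a gene, filled red or blue where limma's adjusted p was under 0.05. MYLK, MYH3, MYL1 and MYH11 lie far to the right, HEY2 and IRX4 far to the left, and most thick filament and folding genes are open points above 0.

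Similarity of profile is described over the 6 libraries, which differ in genotype and depth, so the genotype difference is part of each correlation. The most similar genes were found among 13027 genes by Pearson correlation of log2 values. For MYH6 they were ERBB2 (r = 0.9985), POFUT1 (0.9965) and ARL1 (0.9961), and for MYH7 RRAGD (0.9973), DHCR7 (0.9968) and COLGALT2 (0.9967). For MYL2 they were SNX5 (0.9991), SEMA3B (0.9977) and TPGS2 (0.9972), and for MYL7 CMC2 (0.9992), RANBP3 (0.9988) and RPL23AP82 (0.9986). ERBB2, a receptor tyrosine kinase, followed MYH6 library by library, with 8853, 5607 and 10897 normalized counts in the wild type and 3361, 4468 and 3694 in the knockout. SNX5 followed MYL2 with a much smaller change, a log2 fold change of -1.18 against -6.68, since a correlation does not read size.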

How the data were processed

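Total RNA was column-purified with DNase digestion, cDNA was made with a Clontech low-input kit and libraries with NexteraXT, per the labels' protocols. The submitters' processing notes name bcl2fastq 2.19, kallisto 0.44.0, DESeq2 1.28.1 and GRCh38, without order. The deposited values are a signal the authors call normalized counts. In every library 100% of the values were whole multiples, within 0.01 read, of a single step, which gave back whole numbers, called reads here. Whether these are counted reads or rounded estimates is not given in the sources used here, so the counting intervals treat them as reads. How reads shared by paralogs were split and whether strand was used are not given in the sources used here. The libraries' columns were matched by the names in the labels, and no column was left unused.

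limma 3.58.1 (R 4.3.3) was run on log2(value + 1) for the 15536 genes with a mean of at least 10, with a trend in eBayes, no covariate and Benjamini-Hochberg adjustment at 0.05. Of 35793 genes, 11622 had no read. Transcript lengths came from GENCODE 29 (97.7% of tested genes matched by symbol). Shares and sums per length were computed per library and tested by exact two-sided permutation (scipy 1.17.1). Counting intervals are exact Clopper-Pearson intervals at 95% and cover counting error only, as does the floor of 3 reads used for lower bounds. edgeR 4.0.16 and DESeq2 1.42.0 on recovered reads were alternatives, beside other pseudocounts, filters, scalings, a replicate block and leaving out each library. On simulated data with 15536 genes, 196 of 200 changed genes were recovered with 9 false calls. These counts hold only for the changes planted there. Recovery of changes with the size and spread seen in the members was not tested.

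Named are STK25, the 9 members, up to 4 called genes per list and direction (mean of 50 or more in the genotype where the gene was higher), and the 3 genes most like each of MYH6, MYH7, MYL2 and MYL7; not all list genes that qualify are discussed. Uncalled list genes were named as examples. Members, lists and tests were chosen with earlier results of these data known. Python 3.11.15 with matplotlib 3.10.9 drew the figures.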

Additional observations from a re-analysis of the deposited data

How the results depend on the processing

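The directions of all 9 members were the same under each of the 19 alternatives listed for them, except that quantile normalization gave 0 for MYL7. The count of members called, 2 with all libraries, was 3 with edgeR, 5 with DESeq2, 1 without a trend in eBayes, 1 to 3 when each library was left out, 9 with the length and GC trend removed and 8 without wild-type replicate 2 and knockout replicate 1. The count over all genes, 1982 at first, was 1864 with edgeR, 3210 with DESeq2, 3105 with the trend removed, 4483 without both libraries and 796 to 2181 when each library was left out. Dropping wild-type replicate 1 gave 796 and dropping replicate 3 gave 916, and dropping knockout replicates 2 and 3 in turn gave 1292 and 962. Called list genes numbered 31, and 49 with DESeq2, 55 without both libraries and 18 to 35 when each was left out. STK25 ranged from -1.24 to -1.05 when each library was left out and was -1.28 without both. Same-numbered replicates correlated at -0.23, -0.40 and 0.17 in their deviations, so the numbers share no visible pairing. With the replicate number as a block, 798 genes and 1 member were called, MYH7B was at an adjusted p of 0.141 (0.0666 without a trend in eBayes), and STK25 was at -1.12 with a limma adjusted p of 0.0684. Scaling to equal totals moved the median of all genes to -0.27 and gave 549 higher and 1456 lower genes, and scaling to 12 cardiomyocyte genes moved it to -0.40 and gave 490 and 1997, against 927 and 1055. The MYL2 share differed by -2.77 percentage points without division by length and by -2.72 with the longest transcripts, against -2.12. The summed MYH6 and MYH7 had a log2 difference of -0.03 (-0.0325) with the 12-gene scaling. Scaling to equal totals, equal upper quartiles or 12 cardiomyocyte genes left the members' count at 2 but with 0 higher and 2 lower, MYH6 in place of MYH7B. The other alternatives moved the counts by at most 1.5 times, which does not say that the genes called were identical, and left the shares, the sums and STK25 on the same side of the threshold or within the spread between replicates. The causes of these changes were not tested. In the knockout 71 to 266 reads carry each MYL2 value, and its normalized counts spread 4.27-fold between libraries. Counting intervals were computed for its share of MYL2 plus MYL7 reads and not for this level. In that share the interval of knockout replicate 1 (0.0128 to 0.0164%) lay above those of replicates 2 (0.0072 to 0.0116%) and 3 (0.0072 to 0.0104%), which overlapped.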

Other observations

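The skeletal heavy chain genes of chromosome 17 gave opposite readings within 1 cluster. MYH4 (10443290 to 10469559, minus strand), a fast skeletal heavy chain, had 48.3, 54.8 and 34.4 normalized counts in wild-type replicates 1, 2 and 3 and at most 1 read in each knockout library, at least 14.0-fold lower (limma adjusted p = 0.00463). MYH2 (10521148 to 10549957, minus strand) had 57.4, 30.5 and 22.3 and then at most 2 reads, at least 11.2-fold lower (limma adjusted p = 0.0147). Its adjusted p was 0.0847 or 0.0536 when wild-type replicate 1 or 3 was dropped and 0.0502 when knockout replicate 3 was. MYH3, at 10628526 to 10657309 on the same strand, rose to 980, 1903 and 1242 in the knockout, while MYH1, between MYH4 and MYH2, had no read in any library. MYH2 and MYH4 overlap the antisense genes MYHAS and AC005323.2, and MYH3 overlaps no gene in GENCODE 29. MYH1 and MYH8 overlap the same antisense genes, and MYH8 had at most 1 read in each library. These overlaps are of whole gene spans, and whether exons overlap was not checked. Reads of the antisense genes may be mixed with those of MYH2 and MYH4 where exons overlap and strand was not used. What part the antisense genes had was not tested. MYH2 and MYH4 were chosen after their values were seen.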
